A study of Mus musculus with 12 samples.

Results

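The glycolysis and hypoxia response genes are 37 mouse genes, taken by symbol from a table of read counts for 49671 genes. They comprise 16 enzymes of glycolysis and lactate formation, 6 transporters and regulators of glucose use, and 15 other genes of the response to low oxygen, including the hypoxia-inducible factor subunits Hif1a and Epas1. RNA was sequenced from 12 libraries in 4 groups of 3, each labelled a pool of mouse embryos (embryonic day 9.5). The groups were wild type (labelled WT), a knockout of Lyl1 (LYL1 KO, here Lyl1 KO), a knockout of Scl, whose gene symbol is Tal1 (SCL KO, here Scl KO), and a knockout of both (LYL1 SCL DKO, here the double KO). Both genes encode related bHLH (basic helix-loop-helix) regulators of blood and vessel cells. The series asks about the role of Lyl1 in the making of primitive red cells. No treatment is given and the age is the same in all groups. The sources used here do not give the alleles, the strain or the number of embryos in a pool. The labels call the replicates biological, but nothing says that they came from separate litters, and p-values therefore measure only how these pools vary.

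Total counts lay between 24324685 and 29212443 per library. Levels are counts scaled to a common library total (CPM), normalised by the trimmed mean of M-values (TMM), and values in 3 libraries are given in the order of replicates 1 to 3. Gene coordinates are of build GRCm38. Tal1 was at 19.2% and 16.2% of its wild-type mean in Scl KO and the double KO. Lyl1 was at 48.5% and 46.5% in Lyl1 KO and the double KO, and its fall in Lyl1 KO did not pass the test. The tissue label did not match the defining markers. Of 42 markers of heart, neural tube, mesoderm and gut, 8 reached 1 CPM in any library, and Myh6, Nppa, Nkx2-5, Myl7, Sox1, Sox3, Olig2, Msgn1, Pax1, Ttr, Foxa2 and Cdx2 had no count in any of the 12. The summed level of 18 megakaryocyte and platelet markers, none of them at 0, lay between 60706 and 69255 CPM in wild-type pools and 18063 and 35928 CPM in the double KO. It was 66297 to 76296 CPM in Lyl1 KO and 45976 to 63265 CPM in Scl KO. Of 17 red cell markers, 16 were in the table and 10 reached 1 CPM. Kel had no count, and Alas2, Klf1 and Hba-x had group means of at most 0.198 CPM. The red cell sum was 676 to 766 CPM in wild-type pools, 1308 to 1765 CPM in Lyl1 KO, 331 to 849 CPM in Scl KO pools and 50.5 to 356 CPM in the double KO. The 12 endothelial markers, none at 0, summed to 1311 to 1480.4 CPM in wild-type pools, 1506 to 1731 CPM in Lyl1 KO, 809 to 989.7 CPM in Scl KO pools and 508 to 665 CPM in the double KO. The 13 macrophage and monocyte markers, none at 0, summed to 5075 to 8747 CPM, 6194 to 9640.2 CPM, 4422 to 6252 CPM and 4025 to 4962 CPM in the same order. In RNA from pools, fewer cells of a type and less RNA per cell cannot be told apart. RNA of Y-linked genes was present in Lyl1 KO 3, double KO 1 and double KO 2 and near 0 in the other 9 libraries. Xist was at most 1.79 CPM in those 3 libraries and at least 356 CPM in the other 9. No library held both at a raised level, so each read as a single sex, though all are labelled pools. A pool of both sexes would hold both, and the reason was not tested. All wild-type and Scl KO libraries were among the 9, so over all 12 libraries sex is partly confounded with the double KO. Among replicates 1 and 2 alone it is fully confounded with the double KO. The part of sex in the differences was not tested.

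Glycolysis splits glucose into pyruvate and yields ATP without oxygen. Glucose enters through transporters of the Slc2a family, is held in the cell by hexokinase, is committed to breakdown by phosphofructokinase and leaves as lactate when pyruvate is not burned in mitochondria. Low oxygen stabilises the alpha subunits of the hypoxia-inducible factors (HIFs), which the prolyl hydroxylases of the Egln family otherwise mark for destruction. HIFs then bind short DNA motifs and raise the transcription of most glycolytic enzymes, of glucose transporters and of genes for survival and matrix formation. HIF alpha is controlled mainly as a protein, so its mRNA need not follow oxygen. Platelets take up glucose largely through Slc2a3 and are strongly glycolytic.

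Against wild type, the double KO had the most calls among the 37 genes. All 37 passed the filter on low counts, and a gene is called changed at an adjusted p under 0.05 in edgeR's quasi-likelihood test, adjusted over all 15399 genes tested. In that comparison 7 members rose and 12 fell in the double KO, while 16.4% of all genes rose, 18.1% fell and 34.5% were called in either direction. The members' shares were 18.9% up and 32.4% down. Their median log2 difference was 0.11, beside 0.04 for all genes tested. In Scl KO against wild type 2 members rose (Pfkp and Ddit4) and 2 fell (Pkm and Pdk1), with 5.03% of all genes called, 2.29% up and 2.73% down. Lyl1 KO gave no call by edgeR, by DESeq2 or by limma-voom, with 0.0714% of all genes called by edgeR (0.039% up and 0.0325% down). The number of members at an unadjusted p under 0.05 was 3 by edgeR (Hif1a, P4ha1 and Bnip3), 5 by DESeq2 and 2 by limma-voom. Against Scl KO, the double KO had 6 members up and 7 down, with 8.37% and 10.8% of all genes up and down (19.1% in all). Against Lyl1 KO it had 12 up and 10 down, with 17.4% and 17.9% of all genes (35.2% in all). These comparisons share libraries, so their counts are not independent of each other. Together they called 25 of the 37 members at least once (67.6%), beside 43.9% of all genes tested.

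**Figure D1:**
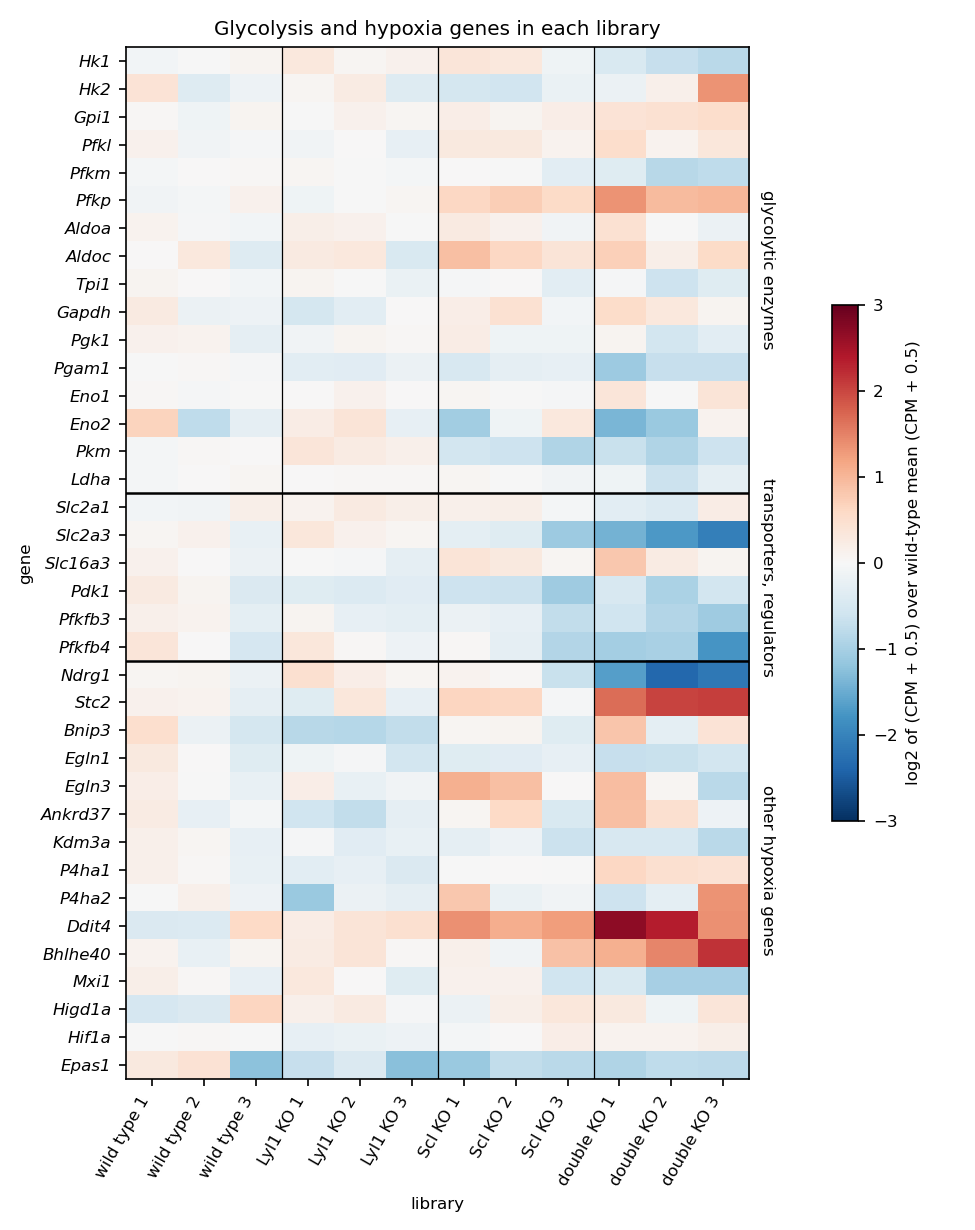
Each row is 1 of the 37 genes and each column 1 of the 12 libraries, with colour for the log2 ratio of (CPM + 0.5) to the wild-type mean (CPM + 0.5). The double KO columns hold both the darkest reds (Ddit4, Stc2, Bhlhe40) and the darkest blues (Ndrg1, Slc2a3), and the Lyl1 KO columns are mostly pale.

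By role, the double KO against wild type had calls in both directions among enzymes and hypoxia genes, and 4 falls and no rise among transporters and regulators. Of the 16 enzymes, 3 rose (Gpi1, Pfkl, Pfkp) and 4 fell (Hk1, Pfkm, Pgam1, Pkm), with a median log2 difference of -0.07. Of the 6 transporters and regulators none rose and 4 fell (Slc2a3, Pdk1, Pfkfb3, Pfkfb4), with a median of -0.75. Slc16a3, uncalled here, was called as a rise under 4 alternatives given with its values. Of the 15 other hypoxia genes 4 rose (Stc2, P4ha1, Ddit4, Bhlhe40) and 4 fell (Ndrg1, Egln1, Kdm3a, Mxi1), with a median of 0.23. The shares called were 43.75% of the enzymes, 66.7% of the transporters and regulators and 53.3% of the other hypoxia genes, beside 34.5% of all genes. Of all genes tested 16.4% rose and 18.1% fell. No test between roles was made. The enzymes' summed level was 6151 ± 59 CPM in wild-type pools, 6775 ± 368 CPM in Lyl1 KO, 5675 ± 629 CPM in Scl KO pools and 4941 ± 634 CPM in the double KO (SD, n = 3). The other hypoxia genes summed to 1049 ± 88.5 CPM, 1117 ± 132 CPM, 1081 ± 186 CPM and 822 ± 106 CPM in the same order. Pkm, Aldoa, Hk1 and Ldha made up most of the enzyme sum, and Ndrg1 was the largest part of the other in wild type. As geometric means, in which each gene counts alike, the double KO levels were 96.2% of wild type for the enzymes and 115% for the other hypoxia genes, in place of 80.3% and 78.4% of the sums. The transporters and regulators summed to 4431 ± 563 CPM in wild-type pools and 1577 ± 328 CPM in the double KO, most of it Slc2a3.

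**Figure D2:**
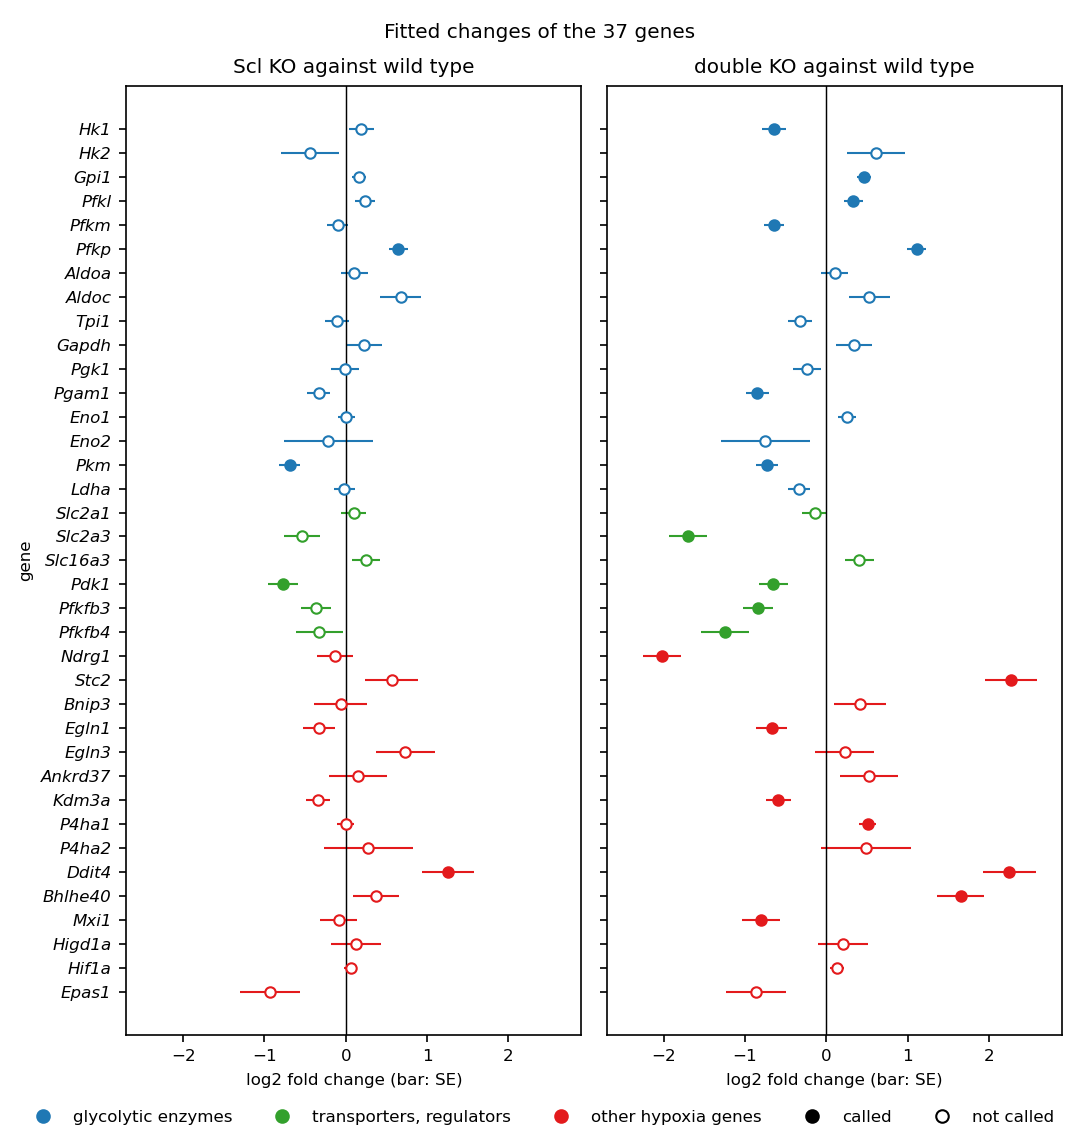
Points are the log2 fold changes of the 37 genes in Scl KO and in the double KO against wild type, with bars of 1 SE from edgeR, ordered by role. In the double KO the 4 called transporters and regulators lie below 0, while called enzymes and hypoxia genes lie on both sides, from Ndrg1 at -2.02 to Stc2 at 2.27.

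The motif that HIFs bind has the core ACGTG or GCGTG, and it was looked for on either strand (as CACGT or CACGC on the other) in the 250 bases before each RefSeq transcription start (build GRCm38.p6). The cores share the letters CGTG. RefSeq starts were matched for 33 members, with 50 starts. At least 1 core lay before 39 of the 50 starts (78%), against 38.6% of all 32851 RefSeq starts. ACGTG lay before 46% of the members' starts and 16.6% of all starts, and GCGTG before 52% and 28.2%. By role the share with either core was 74.1% of the enzymes' starts, 85.7% of those of transporters and regulators and 81.2% of those of the other hypoxia genes. Gpi1, Tpi1 and Eno2 had no match. By gene, 30 of the 33 members had a core. Some starts of a gene lie close together, so a core can count for more than 1 start, as in Aldoa, Eno1 and Pfkm. The members were chosen as genes of glycolysis and the response to low oxygen, so their shares are no test of HIF binding. The shares were not matched for base composition, and a match is not a binding site. The 4 members shown changed by over 1 on the log2 scale in the double KO and have a RefSeq start: Pfkp (chr13:6648772-6649021 on the minus strand) and Pfkfb4 (chr9:108991652-108991901 on the plus strand), which act on the same step of glycolysis, and Stc2 (chr11:31370062-31370311 on the minus strand) and Ddit4 (chr10:59951771-59952020 on the minus strand), the members that rose most. Each is printed in the direction of transcription and ends just before the start, with the cores in capitals.
Pfkp: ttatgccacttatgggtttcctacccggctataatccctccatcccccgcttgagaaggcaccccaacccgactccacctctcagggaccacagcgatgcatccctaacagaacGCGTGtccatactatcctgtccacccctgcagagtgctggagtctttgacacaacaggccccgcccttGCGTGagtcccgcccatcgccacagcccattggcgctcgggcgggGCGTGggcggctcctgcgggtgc
Pfkfb4: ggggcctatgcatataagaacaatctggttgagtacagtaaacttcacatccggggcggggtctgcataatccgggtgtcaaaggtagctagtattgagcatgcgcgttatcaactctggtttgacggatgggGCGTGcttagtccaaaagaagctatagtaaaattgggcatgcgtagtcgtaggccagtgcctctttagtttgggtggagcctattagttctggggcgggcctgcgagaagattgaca
Stc2: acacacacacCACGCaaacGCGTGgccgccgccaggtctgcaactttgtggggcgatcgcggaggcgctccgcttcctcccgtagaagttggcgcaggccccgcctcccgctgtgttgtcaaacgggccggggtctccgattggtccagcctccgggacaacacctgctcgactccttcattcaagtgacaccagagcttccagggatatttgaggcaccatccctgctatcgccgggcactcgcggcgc
Ddit4: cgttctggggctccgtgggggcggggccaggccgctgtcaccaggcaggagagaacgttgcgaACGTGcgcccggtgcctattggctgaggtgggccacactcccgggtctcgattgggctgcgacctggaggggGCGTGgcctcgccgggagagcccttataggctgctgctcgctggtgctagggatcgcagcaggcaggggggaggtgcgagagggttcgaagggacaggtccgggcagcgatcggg
The Pfkp cores begin 136, 68 and 23 bases before the start and the Pfkfb4 core 117 bases before it. The Stc2 cores begin 240 and 231 bases before the start, and those of Ddit4 187 and 115 bases before it. Cores were thus present before the RefSeq starts of genes that rose (Pfkp, Stc2, Ddit4) and of a gene that fell (Pfkfb4). By the gene coordinates given with its levels, the counted Pfkfb4 gene starts inside its printed window. Its core lies just within the gene by those coordinates, and is upstream only of the RefSeq start.

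RNA for glucose uptake and for hexokinase fell in the double KO, through Slc2a3 and Hk1. Slc2a3 (ENSMUSG00000003153, chromosome 6, 122727809 to 122801640, minus strand) encodes the glucose transporter GLUT3, the type of neurons and platelets, and was the most abundant member per kilobase of counted length in wild type (555 CPM per kilobase). Slc2a3 lay at 4202, 4419.6 and 3446 CPM in the wild-type libraries, 5067, 4376 and 4175 in those of Lyl1 KO, 3292, 3146 and 1876 in those of Scl KO and 1515, 1228 and 966 in those of the double KO. All double KO libraries were below all others, and Scl KO lay between wild type and the double KO without overlap. In the double KO 30.7% of the wild-type mean remained, a log2 difference of -1.70 ± 0.23 (adjusted p = 0.000167). Against Scl KO the difference was -1.16 ± 0.23 (adjusted p = 0.00407), and Scl KO against wild type was -0.54 ± 0.23 (adjusted p = 0.233) and not called; with the replicate number as a block it was -0.57 and called (adjusted p = 0.0361). Slc2a1, the basal transporter GLUT1 of red cells and many tissues, was at 36, 35.5 and 42.8 CPM in the wild-type libraries, 41.2, 45.7 and 42.9 in those of Lyl1 KO, 42.6, 43.1 and 36.4 in those of Scl KO and 30.6, 28.4 and 44.5 in those of the double KO. These groups overlapped, and the double KO difference of -0.14 ± 0.16 (adjusted p = 0.514) was not called. It was called without double KO 3 (log2 -0.38, adjusted p = 0.0273) and with replicates 1 and 2 alone (log2 -0.29, adjusted p = 0.0473). Slc2a1 lies 4.05 Mb from Tal1 on chromosome 4. Of the glucose transporter RNA measured per kilobase, Slc2a3 held 97% ± 0.505 in wild type and 91.5% ± 2.9 in the double KO, and Slc2a1 1.94% ± 0.468 and 5.58% ± 2.45.

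Hk1 (ENSMUSG00000037012, chromosome 10, 62268855 to 62379908, minus strand), the hexokinase that binds mitochondria in most adult tissues, fell in the double KO. Its level was 1045, 1091 and 1167 CPM in the wild-type libraries, 1369, 1141 and 1207 in those of Lyl1 KO, 1409.6, 1362 and 1004 in those of Scl KO and 803, 686 and 628 in those of the double KO. The double KO libraries lay below every other library, and the other 3 groups overlapped. The log2 differences were -0.64 ± 0.15 (adjusted p = 0.00654) against wild type, -0.83 ± 0.15 (adjusted p = 0.00269) against Scl KO and -0.81 ± 0.15 (adjusted p = 0.00143) against Lyl1 KO. Hk2, the hexokinase that insulin and HIF induce, was at 26.8, 15.1 and 18 CPM in the wild-type libraries, 20.7, 23.6 and 15.2 in those of Lyl1 KO, 13.8, 13.2 and 17.2 in those of Scl KO and 17.6, 22.2 and 51.6 in those of the double KO. Only double KO 3 stood out, and the difference of 0.61 ± 0.35 (adjusted p = 0.204) was not called and turned to -0.015 without it. Per kilobase, Hk1 made up 85.5% ± 5.3 of hexokinase RNA in wild type and 81.4% ± 5.75 in the double KO, and Hk2 2.2% ± 0.618 and 5.12% ± 3.27. Hk3, a hexokinase outside the members, held more than Hk2, at 12.3% ± 4.7 and 13.4% ± 2.66. The megakaryocyte and platelet marker sum was lowest in the same group as Slc2a3 and Hk1, with 35928, 25322 and 18063 CPM in double KO 1 to 3. Of its 18 markers 16 were called lower in the double KO than in wild type, where 18.1% of all genes tested were called lower. The endothelial sum was also lowest there, with 665, 648 and 508 CPM and 6 of 12 markers called lower and 1 higher, and 3 of the 12 macrophage and monocyte markers tested were called lower. The part of these cell types in the falls, and in the other differences of the double KO, was not tested.

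**Figure D3:**
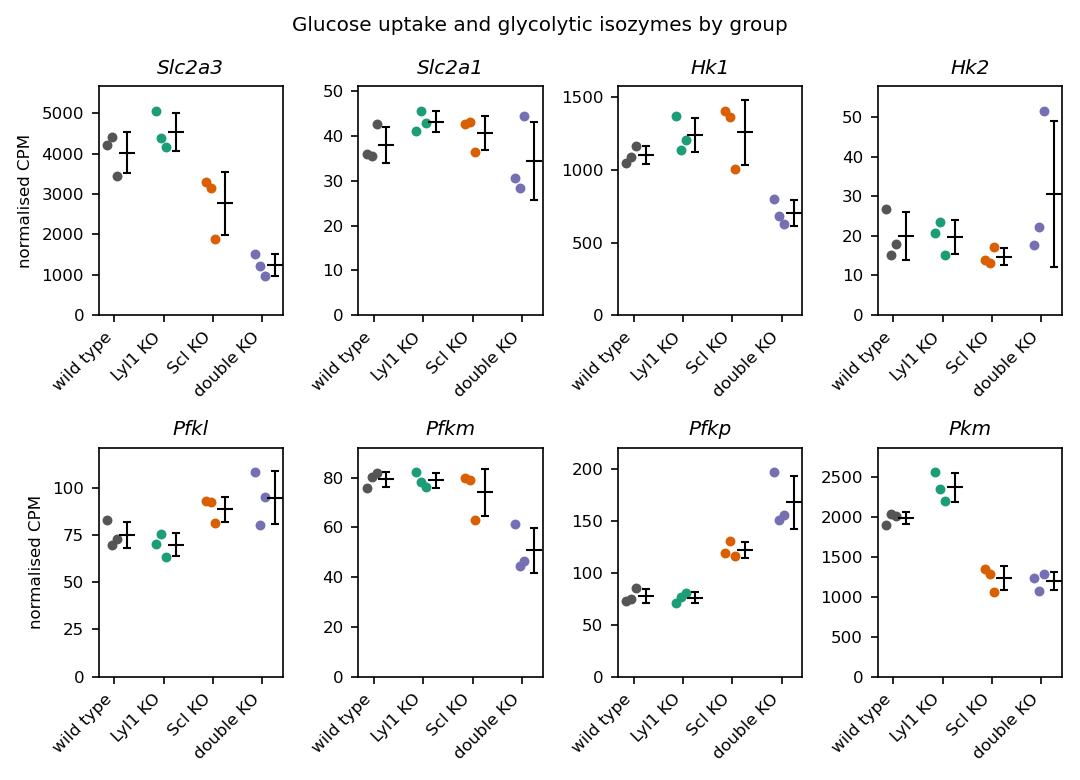
Points are TMM-normalised CPM of 8 genes in each library, grouped by genotype, with the mean and SD of 3 libraries beside them and axes that start at 0. Slc2a3 and Hk1 are lowest in all 3 double KO libraries, Pfkp is highest there, and Hk2 in the double KO rests on 1 high library.

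In upper glycolysis the phosphofructokinase subunits changed in opposite directions. Phosphofructokinase is the main control point of the pathway and is a tetramer of the muscle (Pfkm), liver (Pfkl) and platelet (Pfkp) subunits. Pfkp (ENSMUSG00000021196, chromosome 13, 6579768 to 6648777, minus strand) was at 72.6, 75.1 and 85.1 CPM in the wild-type libraries, 70.5, 76.6 and 80.9 in those of Lyl1 KO, 119, 130.4 and 116 in those of Scl KO and 197, 151 and 156 in those of the double KO. Both groups without Scl lay above all libraries with Scl, and the double KO lay above Scl KO. Pfkp rose by 0.65 ± 0.12 (adjusted p = 0.00662) in Scl KO and by 1.11 ± 0.12 (adjusted p = 2.73e-05) in the double KO, on the log2 scale. The double KO exceeded Scl KO by 0.46 ± 0.11 (adjusted p = 0.0153). That last call was lost without Scl KO 1 (adjusted p = 0.0611) and with only the 2 groups compared (adjusted p = 0.0529).

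Pfkm (ENSMUSG00000033065, chromosome 15, 98092589 to 98132447, plus strand) went the other way in the double KO. Its level was 75.9, 80.2 and 81.9 CPM in the wild-type libraries, 82.3, 78.4 and 76.4 in those of Lyl1 KO, 79.9, 79.1 and 63.2 in those of Scl KO and 61.3, 44.4 and 46.7 in those of the double KO. The double KO lay below every other library, with double KO 1 just under Scl KO 3. Its log2 difference was -0.64 ± 0.13 (adjusted p = 0.00233) against wild type and -0.54 ± 0.13 (adjusted p = 0.0116) against Scl KO. The second call was lost without Scl KO 2 (adjusted p = 0.0539) and with only the 2 groups compared (adjusted p = 0.0668). Pfkl was at 82.7, 69.7 and 72.6 CPM in the wild-type libraries, 69.9, 75.7 and 63.5 in those of Lyl1 KO, 92.7, 92.3 and 81 in those of Scl KO and 108, 80.2 and 95.3 in those of the double KO. Double KO 2 lay inside the wild-type range, and the rise of 0.33 ± 0.12 (adjusted p = 0.0498) sat at the threshold. That call was lost without wild type 2, wild type 3, double KO 1 or double KO 3 (adjusted p from 0.0928 to 0.164) and with DESeq2 size factors, no filter beyond 1 count, replicates 1 and 2 alone, only the 2 groups compared, limma-voom or DESeq2's Wald test (adjusted p from 0.0549 to 0.132). Against Lyl1 KO, with no overlap, Pfkl was higher by 0.44 ± 0.12 (adjusted p = 0.0142), a call lost with replicates 1 and 2 alone (adjusted p = 0.0683). Per kilobase, the Pfkm share of phosphofructokinase RNA was 51.5% ± 2.08 in wild type, 52.8% ± 1.6 in Lyl1 KO, 43% ± 1.8 in Scl KO and 30.3% ± 1.02 in the double KO. The Pfkp share was 15.8% ± 1.11, 16% ± 1.5, 22.3% ± 1.44 and 31.6% ± 0.929 in the same order, and Pfkl filled the rest. With these counted lengths the 3 subunits came to shares of similar size in the double KO. The counted length was 2957 bases for Pfkm, 4395 for Pfkl and 9395 for Pfkp. Their coding transcripts hold 3308, 3759 and 4536 distinct 50-base stretches in that order. A length nearer to these would give Pfkp a larger share, so the sizes of the shares depend on the lengths used.

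**Figure D4:**
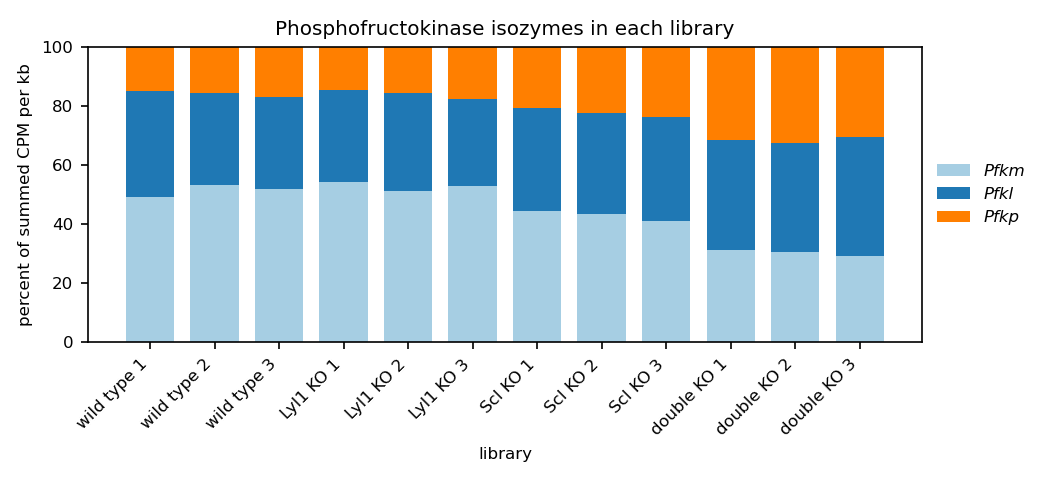
Stacked bars are the share of phosphofructokinase RNA (CPM per kilobase of counted length, in percent) held by Pfkm, Pfkl and Pfkp in each library. Pfkm falls from 51.5% in wild type to 30.3% in the double KO while Pfkp goes from 15.8% to 31.6%, with Scl KO between them.

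Gpi1 (ENSMUSG00000036427, chromosome 7, 34201330 to 34230336, minus strand), the isomerase that turns glucose phosphate into fructose phosphate, was at 154, 138 and 159 CPM in the wild-type libraries, 148, 165 and 156 in those of Lyl1 KO, 172, 159 and 173 in those of Scl KO and 200.1, 207 and 216 in those of the double KO. Every double KO library was above every other, by a narrow step over Scl KO. Of the 50-base stretches of Gpi1 coding transcripts 24.5% also occur in other genes, and reads that map to several places were not counted. Gpi1 rose by 0.47 ± 0.09 (adjusted p = 0.0016) on the log2 scale against wild type and differed by 0.30 ± 0.09 (adjusted p = 0.0304) from Scl KO. The call against Scl KO was lost without Scl KO 1, Scl KO 2, double KO 2 or double KO 3 (adjusted p from 0.0664 to 0.138) and with no filter beyond 1 count, replicates 1 and 2 alone or only the 2 groups compared (adjusted p from 0.0727 to 0.101). The aldolases cleave fructose bisphosphate and Tpi1 interconverts the products. Aldoa was at 1193, 1079 and 1044 CPM in the wild-type libraries, 1258, 1209 and 1095 in those of Lyl1 KO, 1339.6, 1209 and 1023 in those of Scl KO and 1507, 1088 and 973 in those of the double KO, with overlapping groups and a double KO difference of 0.11 ± 0.17 (adjusted p = 0.657), which turned to -0.097 without double KO 1. Aldoc, the brain type, reached at most 18.3 CPM in any library and was not called (0.53 ± 0.25, adjusted p = 0.125), but was with the library code set as a term (log2 0.57, adjusted p = 0.0411). Tpi1 differed by -0.32 ± 0.15 (adjusted p = 0.109) and was not called. It was called with the replicate block (log2 -0.33, adjusted p = 0.0461) and without double KO 1 (log2 -0.48, adjusted p = 0.018).

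Lower glycolysis yields ATP and pyruvate. Many of its genes have near-identical copies, and reads that map to several places were not counted, so their levels are uncertain. Pkm (ENSMUSG00000032294, chromosome 9, 59656368 to 59679375, plus strand) encodes the muscle-type pyruvate kinase of most tissues. It was at 1906, 2044 and 2014 CPM in the wild-type libraries, 2568, 2355 and 2204 in those of Lyl1 KO, 1346, 1291 and 1065 in those of Scl KO and 1244, 1069 and 1289.6 in those of the double KO. All 6 libraries without Scl lay below the 6 with Scl, and Lyl1 KO lay above wild type. Pkm fell in Scl KO with a log2 difference of -0.69 ± 0.13 (adjusted p = 0.0101) and in the double KO with -0.73 ± 0.13 (adjusted p = 0.00123). The double KO and Scl KO overlapped, at a difference of -0.04 ± 0.13 (adjusted p = 0.87). Of the 50-base stretches of its coding transcripts 23.7% also occur in another gene. Pgam1, phosphoglycerate mutase, was at 16.3, 16.8 and 16 CPM in the wild-type libraries, 13.1, 12.9 and 14.5 in those of Lyl1 KO, 11.6, 13.5 and 13.8 in those of Scl KO and 7.43, 9.85 and 9.95 in those of the double KO. The double KO was lowest in all 3 libraries, and every wild-type library was above all others. Its log2 difference was -0.85 ± 0.14 (adjusted p = 0.000678) against wild type, with 41.5% of its stretches shared with other genes. Against Scl KO it was -0.51 ± 0.14 (adjusted p = 0.0242). This difference from Scl KO was lost without Scl KO 2, Scl KO 3 or double KO 1 (adjusted p from 0.0666 to 0.088) and with no filter beyond 1 count or only the 2 groups compared (adjusted p from 0.0533 to 0.12).

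Gapdh, which oxidises glyceraldehyde phosphate, was counted at 8.03, 5.75 and 5.83 CPM in the wild-type libraries, 4.37, 5.19 and 6.55 in those of Lyl1 KO, 7.58, 9.16 and 6.19 in those of Scl KO and 9.81, 8.19 and 6.92 in those of the double KO. This is low for an abundant transcript, and 58.4% of its 50-base stretches occur in 222 other annotated genes, so its level is uncertain. The double KO exceeded Lyl1 KO by 0.63 ± 0.22 (adjusted p = 0.046), without overlap, and wild type by 0.35 ± 0.22 (adjusted p = 0.25), with overlap. The call against Lyl1 KO was lost without Lyl1 KO 1, Lyl1 KO 2, double KO 1 or double KO 2 (adjusted p from 0.0822 to 0.165) and with no filter beyond 1 count, the replicate block or only the 2 groups compared (adjusted p from 0.0538 to 0.0644). Pgk1, on the X chromosome, was at 32.1, 32 and 24.3 CPM in the wild-type libraries, 27.3, 31.4 and 30.1 in those of Lyl1 KO, 34.2, 26.9 and 26.8 in those of Scl KO and 31.4, 20 and 23.4 in those of the double KO. Its groups overlapped (-0.24 ± 0.17, adjusted p = 0.311 in the double KO), and 68% of its stretches are shared. Eno1, the main enolase, was at 141, 134 and 135 CPM in the wild-type libraries, 137, 149.6 and 138 in those of Lyl1 KO, 143, 135 and 134 in those of Scl KO and 175, 135 and 178 in those of the double KO. Double KO 1 and 3 lay above all other libraries and double KO 2 among them, and the difference of 0.25 ± 0.11 (adjusted p = 0.0822) was not called; without double KO 2 it was 0.38 and called (adjusted p = 0.00686). 49.5% of the Eno1 stretches are shared. Eno2, the neuronal enolase, ranged from 1.14 to 6.2 CPM over all libraries and was not called against wild type (-0.75 ± 0.55, adjusted p = 0.317) or Lyl1 KO (-0.91 ± 0.55, adjusted p = 0.225). With replicates 1 and 2 alone Eno2 was called lower than both (log2 -1.67, adjusted p = 0.0393, and log2 -1.87, adjusted p = 0.0253), and without double KO 3 lower than Lyl1 KO (log2 -1.69, adjusted p = 0.0339).

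Ldha, the lactate dehydrogenase subunit that favours lactate formation, was at 1015, 1072 and 1102 CPM in the wild-type libraries, 1075, 1095 and 1086 in those of Lyl1 KO, 1101, 1056 and 995 in those of Scl KO and 978, 677 and 869.5 in those of the double KO. All double KO libraries lay below the others, double KO 1 only slightly. The difference was -0.34 ± 0.13 (adjusted p = 0.0672) against wild type, not called, and -0.37 ± 0.13 (adjusted p = 0.0485) against Lyl1 KO, called. DESeq2's Wald test and limma-voom called the first (adjusted p = 0.0257 and 0.0495), and so did the fit without double KO 1 (log2 -0.45, adjusted p = 0.0189). The second call was lost without Lyl1 KO 1, Lyl1 KO 2, Lyl1 KO 3, double KO 2 or double KO 3 (adjusted p from 0.0535 to 0.169) and with no filter beyond 1 count, replicates 1 and 2 alone or only the 2 groups compared (adjusted p from 0.0678 to 0.117). Ldha held 99.3% ± 0.14 of lactate dehydrogenase RNA per kilobase in wild type and 99.4% ± 0.319 in the double KO. Slc16a3 encodes MCT4, which exports lactate, and was at 136, 126 and 110.2 CPM in the wild-type libraries, 123, 121 and 103 in those of Lyl1 KO, 163, 152 and 128 in those of Scl KO and 216, 147 and 131 in those of the double KO. Double KO 1 was the highest library, and the double KO lay above Lyl1 KO but overlapped wild type and Scl KO. Slc16a3 was called against Lyl1 KO (0.51 ± 0.17, adjusted p = 0.0381), and not against wild type (0.41 ± 0.17, adjusted p = 0.0867). The rise against wild type was called with the replicate block (log2 0.39, adjusted p = 0.0144), the library code set as a term (log2 0.40, adjusted p = 0.0216), replicates 1 and 2 alone (log2 0.46, adjusted p = 0.0466) and without double KO 3 (log2 0.54, adjusted p = 0.0278). The call against Lyl1 KO was lost without Lyl1 KO 1, Lyl1 KO 2, Lyl1 KO 3 or double KO 1 (adjusted p from 0.0598 to 0.141) and with only the 2 groups compared (adjusted p = 0.0703).

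The 3 regulators of glucose use, Pfkfb3, Pfkfb4 and Pdk1, fell in the double KO against wild type. Pfkfb3 and Pfkfb4 make and break the sugar bisphosphate that switches phosphofructokinase on, and HIF induces both. Pfkfb3 (ENSMUSG00000026773, chromosome 2, 11471433 to 11554077, minus strand) was at 142, 137 and 103 CPM in the wild-type libraries, 134, 107 and 104 in those of Lyl1 KO, 114, 107 and 76.3 in those of Scl KO and 83.8, 69.5 and 60.6 in those of the double KO. Double KO levels were below wild type and Lyl1 KO in all libraries and overlapped Scl KO. Its log2 difference was -0.84 ± 0.18 (adjusted p = 0.00394) against wild type and -0.69 ± 0.18 (adjusted p = 0.0114) against Lyl1 KO. With the replicate block Scl KO was also lower than wild type (-0.37, adjusted p = 0.0297), from -0.37 ± 0.18 (adjusted p = 0.324) without it. Against Scl KO the double KO differed by -0.47 ± 0.18 (adjusted p = 0.0925) and was not called. With the replicate block it was called (log2 -0.47, adjusted p = 0.00378), as with the library code set as a term (log2 -0.46, adjusted p = 0.00762), with replicates 1 and 2 alone (log2 -0.53, adjusted p = 0.0203) and without Scl KO 3 (log2 -0.62, adjusted p = 0.026). Pfkfb4 (ENSMUSG00000025648, chromosome 9, 108991778 to 109032228, plus strand) was at 30.2, 23.7 and 16.3 CPM in the wild-type libraries, 29.6, 23.8 and 21 in those of Lyl1 KO, 24, 19.4 and 12.6 in those of Scl KO and 11.3, 11.7 and 6.49 in those of the double KO. The double KO libraries were the lowest of all, with the highest just under Scl KO 3. Pfkfb4 fell by 2.37-fold against wild type, a log2 difference of -1.25 ± 0.30 (adjusted p = 0.00689), and differed by -0.92 ± 0.30 (adjusted p = 0.0485) from Scl KO. Significance against Scl KO was lost without Scl KO 1, Scl KO 2, double KO 1, double KO 2 or double KO 3 (adjusted p from 0.0548 to 0.189) and with no filter beyond 1 count, only the 2 groups compared or limma-voom (adjusted p from 0.0664 to 0.0964).

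Pdk1 (ENSMUSG00000006494, chromosome 2, 71873224 to 71903858, plus strand) encodes a kinase that shuts off pyruvate dehydrogenase and so keeps pyruvate from the mitochondria. It was at 114, 100 and 70.5 CPM in the wild-type libraries, 74.1, 71 and 74.5 in those of Lyl1 KO, 61, 60.7 and 45 in those of Scl KO and 67.7, 48.8 and 64.6 in those of the double KO. Both groups without Scl lay below wild type, and wild type 3 was close to Lyl1 KO. Pdk1 fell in Scl KO (-0.77 ± 0.18, adjusted p = 0.0308) and in the double KO (-0.65 ± 0.18, adjusted p = 0.0156). The Scl KO call was lost without wild type 1, wild type 2, Scl KO 1, Scl KO 2 or Scl KO 3 (adjusted p from 0.066 to 0.126) and with only the 2 groups compared (adjusted p = 0.0812). The double KO call was lost without wild type 1, wild type 2 or double KO 2 (adjusted p from 0.0544 to 0.0705) and with only the 2 groups compared (adjusted p = 0.0554). The double KO and Scl KO overlapped, at a difference of 0.12 ± 0.18 (adjusted p = 0.693). Per kilobase Pdk1 held 33.8% ± 5.6 of the RNA of the Pdk family in wild type, less than Pdk3 (54.8% ± 5.31).

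Neither HIF alpha subunit was called in the double KO against wild type. Hif1a (ENSMUSG00000021109, chromosome 12, 73901375 to 73947530, plus strand) was at 82.6, 85.2 and 83.4 CPM in the wild-type libraries, 70, 72.6 and 75.2 in those of Lyl1 KO, 80.5, 84.5 and 96.8 in those of Scl KO and 90, 90 and 94.9 in those of the double KO. Lyl1 KO was below every other library, and the double KO lay above wild type by a small step. The difference was 0.13 ± 0.08 (adjusted p = 0.254) against wild type and 0.34 ± 0.08 (adjusted p = 0.00871) against Lyl1 KO, which was called. The call was lost without Lyl1 KO 1 (adjusted p = 0.0555). Epas1, the subunit of vessel and erythropoietin-producing cells, was at 12.6, 13.9 and 4.08 CPM in the wild-type libraries, 6.11, 7.38 and 4 in those of Lyl1 KO, 4.48, 5.88 and 5.67 in those of Scl KO and 5.25, 5.81 and 5.68 in those of the double KO. Wild type 1 and 2 stood above all other libraries and wild type 3 did not. The double KO difference was -0.87 ± 0.37 (adjusted p = 0.0876); without wild type 3 it was -1.26 and called (adjusted p = 0.00176). With replicates 1 and 2 alone Epas1 was called lower in the double KO (log2 -1.28, adjusted p = 0.000675), in Scl KO (log2 -1.37, adjusted p = 0.00256) and in Lyl1 KO (log2 -0.99, adjusted p = 0.0374) than in wild type. Per kilobase Hif1a held 88.1% ± 5.62 of the RNA of the HIF alpha family in wild type and 93.6% ± 0.303 in the double KO. Egln1, the prolyl hydroxylase PHD2 that sets HIF alpha in normal oxygen, was at 12.6, 10.3 and 7.8 CPM in the wild-type libraries, 9.39, 10.1 and 6.84 in those of Lyl1 KO, 7.85, 8.06 and 8.53 in those of Scl KO and 6.16, 6.3 and 6.83 in those of the double KO. The double KO lay below wild type in all libraries and within a narrow range. Egln1 fell by 1.59-fold, a log2 difference of -0.67 ± 0.19 (adjusted p = 0.0195). The call was lost without wild type 1, wild type 2, double KO 1 or double KO 2 (adjusted p from 0.0544 to 0.0909) and with only the 2 groups compared (adjusted p = 0.0669). Egln3, the hypoxia-induced hydroxylase PHD3, was at 103, 89.7 and 77.4 CPM in the wild-type libraries, 103, 76.7 and 83.5 in those of Lyl1 KO, 189.8, 169 and 91.5 in those of Scl KO and 171, 93.6 and 51.6 in those of the double KO. It was spread widely in both groups without Scl. The double KO difference of 0.23 ± 0.36 (adjusted p = 0.664) turned to -0.31 without double KO 1. Per kilobase Egln1 held only 5.12% ± 0.6 of the RNA of the Egln family in wild type. Egln2 held 33.6% ± 1.87 and Egln3 61.3% ± 1.28.

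Of the hypoxia targets, Stc2 and Ddit4 rose most. Stc2 (ENSMUSG00000020303, chromosome 11, 31357307 to 31370074, minus strand) encodes stanniocalcin, a secreted glycoprotein of the stress response, and was the least abundant member per kilobase in wild type. It was at 1.62, 1.61 and 1.13 CPM in the wild-type libraries, 1.01, 1.96 and 1.15 in those of Lyl1 KO, 2.55, 2.5 and 1.4 in those of Scl KO and 5.79, 7.5 and 7.77 in those of the double KO. The double KO libraries lay far above all others, and the other 3 groups overlapped. Stc2 rose 4.83-fold against wild type (2.27 ± 0.32, adjusted p = 0.000231 on the log2 scale) and 3.27-fold against Scl KO (1.71 ± 0.31, adjusted p = 0.00273). Ddit4 (ENSMUSG00000020108, chromosome 10, 59949675 to 59951770, minus strand) encodes REDD1, which holds back the growth kinase complex mTORC1 under stress. It was at 18.8, 18.9 and 38.5 CPM in the wild-type libraries, 29.9, 33.3 and 35.8 in those of Lyl1 KO, 66.1, 54.6 and 61.6 in those of Scl KO and 165, 132 and 67 in those of the double KO. Wild type 3 was at the level of Lyl1 KO, all libraries without Scl lay above all with Scl, and double KO 3 was near Scl KO. Ddit4 rose 2.39-fold in Scl KO (1.26 ± 0.32, adjusted p = 0.0436) and 4.77-fold in the double KO (2.25 ± 0.33, adjusted p = 0.000268), with 0.996 ± 0.31 (adjusted p = 0.0444) between them. The Scl KO call was lost without wild type 1, wild type 2, Scl KO 1, Scl KO 2 or Scl KO 3 (adjusted p from 0.0844 to 0.189) and with no filter beyond 1 count, the replicate block, the library code set as a term or only the 2 groups compared (adjusted p from 0.0506 to 0.145). The call between the double KO and Scl KO was lost without Scl KO 1, Scl KO 2, Scl KO 3, double KO 1 or double KO 2 (adjusted p from 0.0745 to 0.145) and with no filter beyond 1 count, the replicate block, the library code set as a term, only the 2 groups compared or limma-voom (adjusted p from 0.0518 to 0.146).

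Bhlhe40 (ENSMUSG00000030103, chromosome 6, 108660629 to 108666925, plus strand), a basic helix-loop-helix repressor that HIF induces, was at 48.8, 38.7 and 48 CPM in the wild-type libraries, 53.6, 59.6 and 46 in those of Lyl1 KO, 50.4, 41.7 and 83.8 in those of Scl KO and 95, 127 and 204 in those of the double KO. All double KO libraries were above all others, and Scl KO 3 stood above the rest of its group. It rose 3.14-fold against wild type (1.65 ± 0.29, adjusted p = 0.000985) and 2.42-fold against Scl KO (1.28 ± 0.29, adjusted p = 0.00878). The call for Bhlhe40 against Scl KO was lost without Scl KO 1 (adjusted p = 0.0537) and with only the 2 groups compared (adjusted p = 0.054). P4ha1 (ENSMUSG00000019916, chromosome 10, 59323296 to 59373304, plus strand), the catalytic subunit of the hydroxylase that stabilises collagen, was at 55.3, 50.6 and 42.3 CPM in the wild-type libraries, 39.4, 41.4 and 36.2 in those of Lyl1 KO, 49, 50.2 and 49.1 in those of Scl KO and 75.8, 69 and 66.4 in those of the double KO. Its double KO libraries were the highest and its Lyl1 KO libraries the lowest, with no overlap of either with wild type. P4ha1 rose by 0.51 ± 0.11 (adjusted p = 0.00283) against wild type and by 0.85 ± 0.11 (adjusted p = 8.29e-05) against Lyl1 KO, on the log2 scale. P4ha2, its partner isoform, ranged from 1.05 CPM in Lyl1 KO 1 to 8.05 CPM in double KO 3 and was not called. Its double KO difference of 0.49 ± 0.55 (adjusted p = 0.523) turned to -0.64 with replicates 1 and 2 alone. Bnip3, a receptor for the removal of mitochondria, was at 8.78, 5.31 and 4.01 CPM in the wild-type libraries, 3.2, 3.12 and 3.4 in those of Lyl1 KO, 6.3, 6.42 and 4.58 in those of Scl KO and 11.2, 4.84 and 8.14 in those of the double KO. Lyl1 KO lay below every other library, and double KO and wild type overlapped. Bnip3 was called against Lyl1 KO only (1.31 ± 0.33, adjusted p = 0.00892), and 59.1% of its stretches are shared with other genes. Ankrd37, a small ankyrin-repeat protein, was at 3.7, 2.48 and 2.91 CPM in the wild-type libraries, 1.82, 1.62 and 2.42 in those of Lyl1 KO, 3.21, 4.85 and 2.06 in those of Scl KO and 6.06, 4.41 and 2.68 in those of the double KO. Double KO libraries lay above Lyl1 KO and overlapped the other groups. Against Lyl1 KO the Ankrd37 difference was 1.16 ± 0.37 (adjusted p = 0.0269). That call was lost without Lyl1 KO 1, Lyl1 KO 2, double KO 1 or double KO 2 (adjusted p from 0.0579 to 0.101).

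Among the targets that fell, Ndrg1 changed most. Ndrg1 (ENSMUSG00000005125, chromosome 15, 66929321 to 66969640, minus strand), which is induced by hypoxia and by cell differentiation, was the most abundant of the 15 hypoxia genes per kilobase in wild type. It was at 548, 558 and 466 CPM in the wild-type libraries, 732, 597 and 546 in those of Lyl1 KO, 566, 535 and 330.2 in those of Scl KO and 167, 102 and 119 in those of the double KO. Double KO levels were far below all other libraries, and Scl KO 3 was the lowest of the remaining ones. In the double KO 24.7% of the wild-type mean remained (-2.02 ± 0.23, adjusted p = 4.75e-05), and the difference from Scl KO was -1.88 ± 0.23 (adjusted p = 0.000255). Scl KO itself was at 91% of wild type. Mxi1, which opposes Myc by pairing with Max, was at 86.3, 78 and 63.5 CPM in the wild-type libraries, 94.1, 76 and 59.1 in those of Lyl1 KO, 82.5, 82.4 and 49.9 in those of Scl KO and 54.8, 38.1 and 37.6 in those of the double KO. The double KO lay below wild type and Lyl1 KO, but double KO 1 lay above Scl KO 3. Mxi1 differed by -0.80 ± 0.23 (adjusted p = 0.0182) from wild type and by -0.72 ± 0.23 (adjusted p = 0.0473) from Scl KO. The first call was lost without wild type 1, wild type 2, double KO 2 or double KO 3 (adjusted p from 0.0512 to 0.0662). The second call was lost without Scl KO 1, Scl KO 2, double KO 2 or double KO 3 (adjusted p from 0.13 to 0.164) and with no filter beyond 1 count, only the 2 groups compared or limma-voom (adjusted p from 0.0548 to 0.0915). The call against Lyl1 KO (log2 -0.81 ± 0.23, adjusted p = 0.0165) was lost without Lyl1 KO 1, double KO 2 or double KO 3 (adjusted p from 0.055 to 0.0711). Kdm3a, a histone H3 demethylase that HIF induces, was at 128, 121 and 98.2 CPM in the wild-type libraries, 112, 91.6 and 98.8 in those of Lyl1 KO, 96.4, 104 and 73.6 in those of Scl KO and 82.7, 82.1 and 65.9 in those of the double KO. The double KO lay below wild type and Lyl1 KO in all libraries and overlapped Scl KO. Its difference was -0.59 ± 0.15 (adjusted p = 0.0101) against wild type and -0.39 ± 0.15 (adjusted p = 0.0621) against Lyl1 KO, uncalled; the block called the latter (log2 -0.40, adjusted p = 0.0103). Higd1a, a small mitochondrial membrane protein of the hypoxia response, was not called in any comparison (0.21 ± 0.31, adjusted p = 0.632 in the double KO), but rose in the double KO without wild type 3 (log2 0.73, adjusted p = 0.0332).

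**Figure D5:**
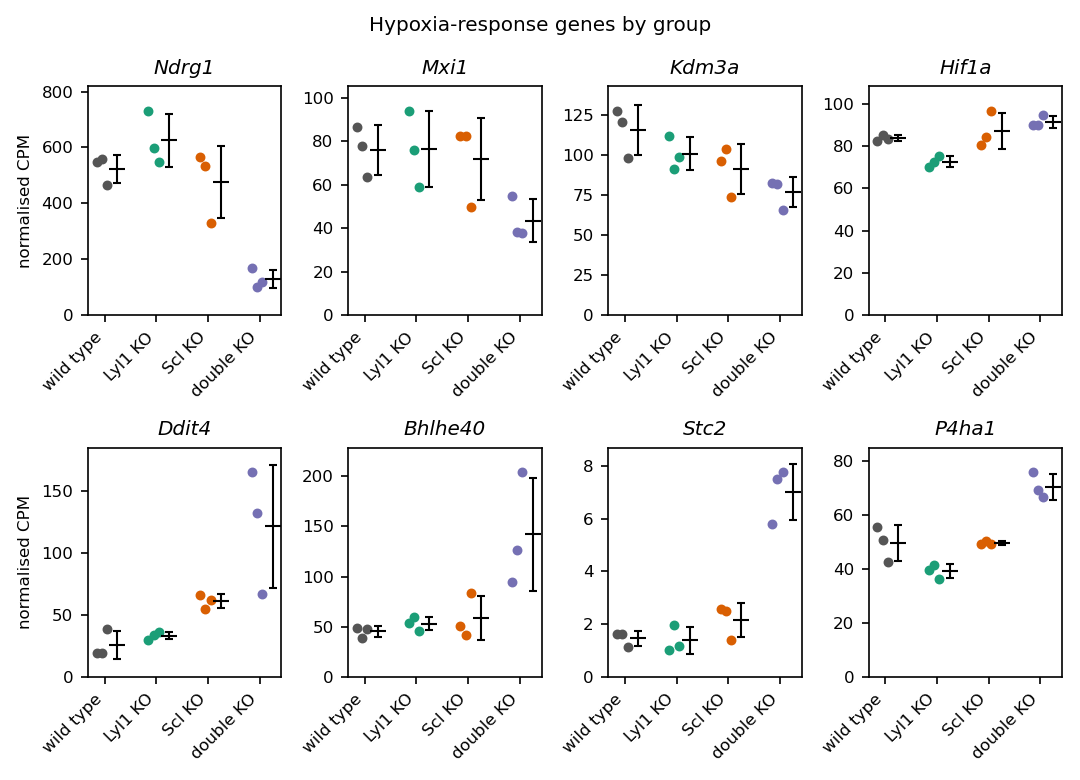
Points are TMM-normalised CPM of hypoxia genes in each library by genotype, with the mean and SD of 3 libraries. Ndrg1 is lowest and Stc2, P4ha1 and Bhlhe40 are highest in all 3 double KO libraries, whereas Hif1a stays between 70 and 96.8 CPM in all 12 libraries.

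In all, 12 members were called in no comparison (Hk2, Aldoa, Aldoc, Tpi1, Pgk1, Eno1, Eno2, Slc2a1, Egln3, P4ha2, Higd1a and Epas1). Their log2 differences between the double KO and wild type lay between -0.87 and 0.61. Of these, 9 were called in some comparison under at least 1 alternative, all but Aldoa, Pgk1 and P4ha2. Over the 6 comparisons 159 values of members were uncalled, and 33 of them were called under at least 1 alternative.

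The effect of losing Lyl1 differed with and without Scl for 5 members. The interaction is the log2 effect of Lyl1 loss without Scl (double KO minus Scl KO) less that with Scl (Lyl1 KO minus wild type). It was called for 13.5% of the members and 9.38% of all genes. It was positive for 2 members (5.41%) and negative for 3 (8.11%), with 3.51% and 5.86% of all genes. Ndrg1 had the largest value at -2.14 ± 0.32 (adjusted p = 0.00237), made of 0.25 with Scl and -1.88 without it. Slc2a3 was at -1.34 ± 0.32 (adjusted p = 0.024), from 0.17 and -1.16. Hk1 was at -1.005 ± 0.21 (adjusted p = 0.0147), from 0.17 and -0.83. Upwards, Stc2 was at 1.78 ± 0.45 (adjusted p = 0.0304), from -0.08 and 1.71, and P4ha1 at 0.85 ± 0.15 (adjusted p = 0.00575), from -0.34 and 0.51. With the replicate block 7 members were called, Pfkfb4 (log2 -1.03, adjusted p = 0.00577) and Mxi1 (log2 -0.70, adjusted p = 0.0183) being added, and the library code set as a term added the same pair (log2 -1.04, adjusted p = 0.00717, and log2 -0.69, adjusted p = 0.0337). Without the block they were at -1.01 ± 0.41 (adjusted p = 0.159) and -0.73 ± 0.32 (adjusted p = 0.193). The values for Ndrg1, Hk1 and P4ha1 were called under every alternative. The Slc2a3 call was lost without Lyl1 KO 1, Scl KO 1, Scl KO 2 or double KO 2 (adjusted p from 0.0549 to 0.0677). The Stc2 call was lost without wild type 1, wild type 2, Lyl1 KO 1, Lyl1 KO 3, Scl KO 1, Scl KO 2 or double KO 2 (adjusted p from 0.0517 to 0.0786) and with replicates 1 and 2 alone (adjusted p = 0.0617).

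The further genes of glycolysis and the hypoxia response were called in both directions in the double KO. Of 125 listed, 107 were tested, and in the double KO against wild type 21 rose and 17 fell, or 35.5%, beside 34.5% of all genes. Among further glycolytic isozymes and lactate genes 3 rose and 6 fell of 22 tested. Pgm2l1, which makes the sugar bisphosphate that activates phosphoglucomutase, was at 485 ± 82.2 CPM in wild-type pools and 56.9 ± 16.7 CPM in the double KO (log2 -3.09 ± 0.26, adjusted p = 5.16e-06). Among pentose phosphate and glycogen genes 6 rose and 1 fell of 18 tested. Pygl, the liver glycogen phosphorylase, went from 128 ± 3.67 CPM to 288 ± 17.9 CPM (log2 1.17 ± 0.09, adjusted p = 3.01e-06). Among further HIF targets 9 rose and 8 fell of 37 tested. Pdgfb, a growth factor stored in platelets, was at 115 ± 9.63 CPM in wild-type pools, 27.7 ± 6.56 CPM in Scl KO pools and 14.6 ± 2.25 CPM in the double KO (log2 -2.99 ± 0.18, adjusted p = 5.58e-07 for the last). Of genes of HIF regulation 2 rose and 2 fell of 16 tested, and of pyruvate dehydrogenase and gluconeogenesis 1 rose and 0 fell of 14 tested.

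In Scl KO against wild type 5 of the 107 rose and 7 fell, 11.2% beside 5.03% of all genes. Bnip3l, the mitophagy receptor of maturing red cells, was at 246 ± 21.7 CPM in wild-type pools and 135 ± 10.5 CPM in Scl KO pools (log2 -0.87 ± 0.13, adjusted p = 0.00271). Rora, a nuclear receptor that HIF induces, was at 33.5 ± 17.4 CPM and 164 ± 4.81 CPM (log2 2.29 ± 0.35, adjusted p = 0.00297). Vegfa, the main vessel growth factor under HIF control, was at 30.5 ± 0.911 CPM in Scl KO pools and 87.4 ± 20 CPM in the double KO (log2 1.52 ± 0.18, adjusted p = 0.000188), with an interaction of 1.54 ± 0.25 (adjusted p = 0.00348). Lyl1 KO against wild type gave 1 call among the 107, Phkb, the beta subunit of phosphorylase kinase, at 58.7 ± 2.13 CPM in wild-type pools and 152 ± 9.62 CPM in Lyl1 KO (log2 1.37 ± 0.14, adjusted p = 0.00172). Phkb lies 1.14 Mb from Lyl1 on chromosome 8, and the part of its position was not tested.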

How the data were processed

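For 12 libraries (3 per group) the authors deposited raw read counts of each gene in a single table, with the gene's counted length in bases. The libraries were made with a strand-specific kit from polyadenylated RNA, per the labels' protocols. The submitters' processing notes name STAR 2.5.2b, GRCm38, featureCounts in Subread 1.5.2 and limma. Counting was for the reverse strand and left out reads that map to several places, per the file headers. The sources used here do not give trimming or read length.

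Symbols were matched by identifier for 49326 of 49671 genes. Analysis used edgeR 4.0.16 in R 4.3.3. Genes passed filterByExpr (count of 10, total of 15), which left 15399, and libraries were scaled with TMM factors. The robust quasi-likelihood test was run on the 4 groups together, with no term but group, and p-values were adjusted by Benjamini-Hochberg over all genes tested. Fold changes are log2 ± standard error. The test was also tried on counts simulated from the fitted spread. These lacked the sex imbalance and the likeness of same-numbered libraries, so they do not check the test for those. A count of 0 allows levels of up to 0.0936 to 0.131 CPM (3 counts), which covers counting error only.

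The members and lists were chosen with earlier results of these data known, so no p is given for a list. All members called in any of 6 comparisons are given with their level in every library, but not every called difference is printed, mainly of those against Lyl1 KO. Others are given by range, or by value where they are partners of a called member. Of the pathway lists, up to 3 called genes per comparison with the smallest adjusted p are named. The share of 50-base stretches found in another gene was computed on protein-coding transcripts of GENCODE M21. Among called members without a share given above, it was highest for Pfkp (15.4%), Ndrg1 (12.3%), Ankrd37 (11.4%) and Ldha (10.4%).

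Replicate numbers come from the labels. Correlations of same-numbered libraries' deviations lay between -0.085 and 0.523, over 0.1 in 12 of 18 pairs. They were over 0.1 in every pair only for wild type with Scl KO and Scl KO with the double KO. Results with the replicate block are given where they changed a call of a member. Alternatives were DESeq2 1.42.0, limma 3.58.1 (limma-voom), DESeq2 size factors, other filters, the replicate block, the library code set as a term, only the groups compared, and each library left out. Use of replicates 1 and 2 alone, which carry sample codes apart from those of replicate 3, was added after the data were seen. In that run only the double KO libraries hold Y-linked RNA, so sex and the double KO cannot be told apart. Without double KO 3 the same holds for the double KO against wild type and against Scl KO.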

Additional observations from a re-analysis of the deposited data

Results flagged for a closer look

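For 5 members the effect of Lyl1 loss differed between pools with and without Scl, by edgeR's test of the interaction. The difference of the log2 effects was -1.005 for Hk1, -1.34 for Slc2a3, -2.14 for Ndrg1, 1.78 for Stc2 and 0.85 for P4ha1 (adjusted p = 0.0147, 0.024, 0.00237, 0.0304 and 0.00575). These are 13.5% of the members, beside 9.38% of all genes tested. The double KO differed from Scl KO in all 3 libraries without overlap for each of the 5. The same libraries entered the interaction by which the 5 were picked, so this is no separate support. The share of all genes without such overlap was not computed. None of the 5 was called in Lyl1 KO against wild type, where 0.0714% of all genes were called.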

How the results depend on the processing

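Of 63 calls of members over the comparisons, 40 were kept under every alternative and 23 were lost under at least 1, and none changed sign. In the double KO against wild type 15 of 19 calls were kept throughout, against 5 of 13 for the double KO against Scl KO and 2 of 4 for Scl KO against wild type. Genes called in Lyl1 KO against wild type numbered 11, and 331 with replicates 1 and 2 alone, 29 with only the groups compared, 108 with DESeq2's Wald test and 5 to 41 with 1 library left out. With replicates 1 and 2 alone 2 members (Ddit4 and Epas1) were called there. In Scl KO against wild type 774 genes were called, and 1226 with the replicate block, 1329 with the code set as a term, 1198 with replicates 1 and 2 alone, 1272 with DESeq2's Wald test and 388 to 955 with 1 library left out. Members called there were 4, 2 with only the groups compared and 2 to 5 with 1 left out. For the double KO set against Scl KO, 2947 genes were called, 1742 with only the groups compared and 1645 to 3222 with 1 left out; members were 13, 8 with no filter beyond 1 count, 5 with only the groups compared and 7 to 13 with 1 left out. The interaction called 1444 genes, 2224 with the code set as a term and 671 to 1925 with 1 left out, and 5 members, 9 with replicates 1 and 2 alone and 3 to 7 with 1 left out. As geometric means, the enzymes in Lyl1 KO were at 101% and in the double KO at 96.2% of wild type (sums 110.1% and 80.3%), and the other hypoxia genes at 89.7% and 115% (sums 106% and 78.4%). None of the uncalled values was called with its sign changed, but 50 of 159 changed sign under at least 1 alternative. In the double KO against wild type these were Hk2 (-0.088 with replicates 1 and 2 alone, and -0.015 to 0.90 with 1 library left out), Aldoa (-0.097 to 0.22 with 1 left out), Egln3 (-0.31 to 0.54 with 1 left out), P4ha2 (-0.64 with replicates 1 and 2 alone and -0.55 to 0.87 with 1 left out) and Higd1a (-0.0019 to 0.73 with 1 left out). The causes were not tested. With the replicate block 5 members were called in Scl KO against wild type, with Slc2a3 and Pfkfb3 added and Ddit4 lost (adjusted p = 0.0869). Own-numbered libraries correlated best in 19 of 36 checks. DESeq2 size factors moved the median of all genes by at most 0.02 (log2).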

Other observations

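The 3 double KO libraries differed from each other in opposite ways for several members. Ddit4 was at 165, 132 and 67 CPM, Egln3 at 171, 93.6 and 51.6 CPM and Slc16a3 at 216, 147 and 131 CPM in double KO 1, 2 and 3, highest in the first. Bhlhe40 was at 95, 127 and 204 CPM, Hk2 at 17.6, 22.2 and 51.6 CPM and P4ha2 at 1.67, 2.22 and 8.05 CPM, highest in double KO 3. The summed megakaryocyte and platelet markers were highest in double KO 1 and lowest in double KO 3. Double KO 3 was also the only double KO library with Y-linked RNA near 0 (0.0936 CPM, beside 239 and 265 CPM). Its sample code lies apart from those of double KO 1 and 2. The part of these in the spread was not tested. In wild type, Ddit4 (18.8, 18.9 and 38.5 CPM) and Higd1a (3.99, 4.18 and 9.4 CPM) were highest in wild type 3, and Epas1 (12.6, 13.9 and 4.08 CPM) and Pfkfb4 (30.2, 23.7 and 16.3 CPM) were lowest there.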
